A study of Mus musculus with 15 samples.

Results

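Skin exposed to 2-chloroethyl ethyl sulfide (CEES) was compared with skin that received only the vehicle. The comparison used 6 of the 15 RNA-seq libraries of the series, 3 from CEES skin and 3 from Control skin, chosen by their labels. All 22529 genes that passed a count filter, of 53700 in the deposited table, were compared. The animals were male mice of the SKH-1 strain, which is hairless. Under anaesthesia, CEES diluted in ethanol was put on the back at 2 mg per mouse, or 500 µg/cm2, in 30 µL over a square of 2 by 2 cm. Control mice were handled in the same way with ethanol alone, and whole skin was examined at 24 h. The remaining libraries came from skin given phenylarsine oxide (PAO), a trivalent arsenical, at 100 µg per mouse or 25 µg/cm2, and from skin given either agent and then, 15 min later, SNX-5422, an HSP90 inhibitor, at 20 mg/kg on the injured area. These libraries entered the model only to help estimate the spread between replicates, and the PAO libraries are set beside CEES in the last comparison. The labels give no age and leave it unsaid whether every library is a separate mouse. The p-values therefore weigh differences against the variation among these samples, part of which may be technical. The CEES libraries carry codes 13 to 15 and the Control libraries codes 1 to 3, and separate handling of the groups cannot be told apart from the treatment.

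CEES carries only one of the reactive arms of sulfur mustard. It alkylates DNA bases, glutathione and protein thiols, but does not crosslink DNA strands, and its adducts are removed by base and nucleotide excision repair. In skin, mustards are known for damage to basal keratinocytes, for separation of the epidermis from the dermis at the hemidesmosomes and the basement membrane, and for an inflammation led by neutrophils and macrophages.

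The libraries held 16838000 to 28887000 counts on genes. On the first principal component of the 6 libraries, which held 68.1% of the variance, Control libraries lay between -69.5 and -59.9 and CEES libraries between 57.5 and 76.7. Among genes with at least 5 CPM (counts scaled to the size of the library) in every library of a group, the highest library stood a median of 1.18 times above the lowest in Control and 1.16 times in CEES. The defining genes of skin were present in every library. Krt14, the keratin of basal cells, lay between 2526 and 3494 CPM over the 6 libraries, and Col1a1, the main collagen of the dermis, between 1478 and 6789.8 CPM. Transcripts of other tissues were also present and differed between the groups. The genes of fast muscle fibres, which mark the muscle beneath the dermis, took 7.05, 11.8 and 8.25% of gene counts in Control and 4.41, 3.71 and 4.1% in CEES libraries. Genes of the pancreas, an organ outside the skin, took 0.386, 0.113 and 0.117% in Control and 0.00176, 0.00204 and 0.0023% in CEES. The pancreas share averaged 0.154% in PAO libraries (codes 4 to 6) and 0.0109% with SNX-5422 after CEES (codes 16 to 18). The source of these transcripts was not tested. Mitochondrially encoded protein genes took 2.48% ± 0.246 (SD, n = 3) in Control and 1.49% ± 0.435 in CEES. The interstitial collagens took 0.504% ± 0.0874 and 1.99% ± 0.124 in the same order. None of these 4 shares overlapped between Control and CEES, and with 3 libraries against 3 an exact two-sided permutation test cannot give a p below 0.1. Their part in the results was examined by a fit without the muscle, mitochondrial and pancreas genes and by a fit with the muscle share as a covariate. It was not tested further. The calls of the fit with the covariate are given beside many of the groups of genes below.

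**Figure D1:**
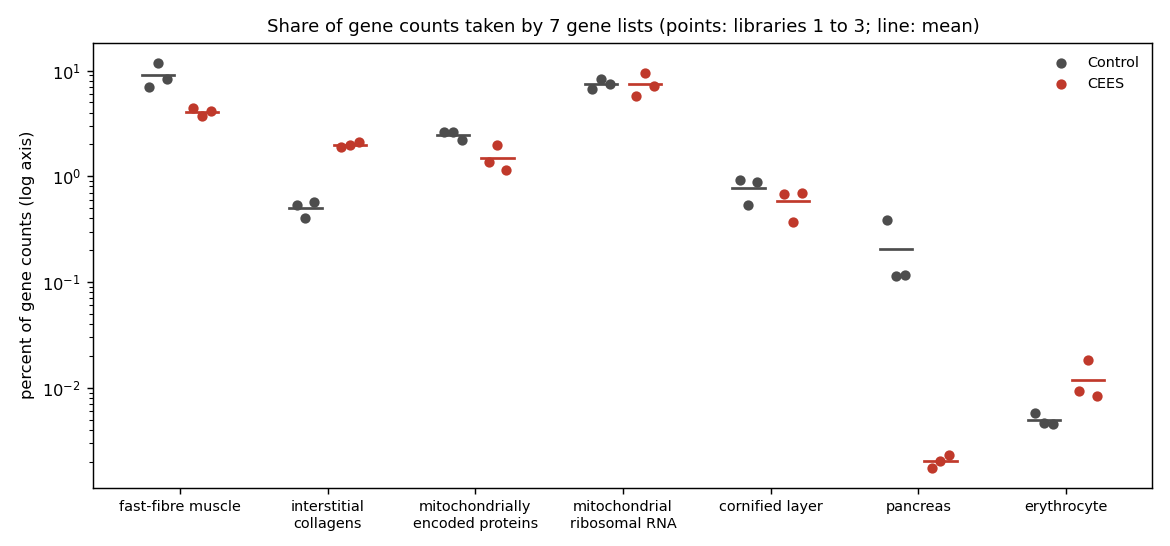
Share of gene counts (percent, log axis) taken by 7 gene lists in the Control (grey) and CEES (red) libraries, with a point for each library and a line at the mean. Fast-fibre muscle genes stood at 9.05% ± 2.49 in Control and 4.07% ± 0.349 in CEES (SD, n = 3). Pancreas transcripts were lower in CEES by far more, interstitial collagens were higher, and mitochondrial ribosomal RNA overlapped.

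The first question was which genes stood at another level in CEES than in Control skin. edgeR's quasi-likelihood test called 7640 genes, or 33.9% of those tested, at a Benjamini-Hochberg adjusted p under 0.05. Of the genes tested 17.8% were raised and 16.2% lowered, 8.03% were raised by more than 2-fold and 5.67% lowered by more than 2-fold. More than 8-fold rises made up 1.17% and more than 8-fold falls 0.564%. In 47.5% of the genes tested the groups did not overlap in CPM. The median log2 fold change over all genes was -0.0356, with 5% of genes below -1.24 and 5% above 1.55. With the log2 muscle share as a covariate 4202 genes were called, 2384 raised and 1818 lowered, of which 2920 were among the 7640. Counts of list members under that covariate are to be read beside these. A fit without the muscle, mitochondrial and pancreas genes called 7561 genes, 7314 of them among the 7640. Scaling moved the balance of directions. Raised genes were 52.4% of the calls with TMM, 43.5% with upper-quartile scaling and 67.7% with total counts, where the median of all genes shifted by 0.117.

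Extremes were ranked among called genes with an ordinary symbol, at least 5 CPM on average in either group and no overlap between the groups, outside the pancreas, muscle and mitochondrially encoded lists. The largest rises ranked there were in genes that Control skin barely expressed. Il19, an epidermal cytokine of the IL-20 family, had 2 counts over the Control libraries, and the CEES to Control ratio was 291 (95% counting interval 80.2 to 2409, for counting error only). Fgf23, known as a phosphate-regulating hormone of bone, stood at 0.161, 0.139 and 0.0649 CPM in Control and at 15.8, 25 and 17.8 CPM in CEES (log2 fold change 7.36 ± 0.70 SE, adjusted p = 1.26e-06). Trem1, a receptor that amplifies myeloid activation, rose by 6.03 ± 0.59, and Pf4, a chemokine of platelets and macrophages, by 5.81 ± 0.41. Lce3c and Lce3d, which encode late envelope proteins of injured epidermis, also rose, with Lce3d at 0 counts in Control and at least 129-fold higher in CEES if the Control group is put at a floor of 3 counts in all. Lce3 genes are near-identical copies, so the split of reads between them is uncertain. The 12 largest falls of that ranking were in genes such as Chga, Pcsk2 and Amy2b, known from the endocrine and exocrine pancreas, and went with the pancreas share given above. In CPM, the largest gains of the ranking were those of Col1a1, Col3a1 and Col1a2, followed by Lrp1, a scavenger receptor (576 ± 48.0 to 1725 ± 214 CPM, SD, n = 3), Actb, Flnc, Mrc1 and Sparc. Its largest loss was that of Lars2, a mitochondrial leucine tRNA synthetase, at 2687, 2179 and 2864 CPM in Control and 251, 340 and 1264 CPM in CEES (-2.06 ± 0.49, adjusted p = 0.00414). The CEES libraries lay far apart in Lars2, and without CEES 3 the change was -3.12. PAO libraries also lay far apart in it, at 2513, 5694 and 3648 CPM. Whether the Lars2 counts came from the mRNA of the synthetase was not tested. The other losses ranked there were in the metabolic genes Aldoa and Pygm, which muscle expresses, in the junction gene Dsp, the basal keratin gene Krt5, the lipid desaturase gene Scd1 and Fcgbp. When muscle share entered as a covariate, Actb, Fcgbp, Dsp, Scd1, Krt5 and Pygm were not called, and Aldoa was called in the other direction. The calls of Dsp, Scd1 and Krt5 also ended with total counts as the scaling, and those of Scd1 and Krt5 without Control 2 or CEES 2. Those of Dsp and Krt5 ended in the fit of only the CEES and Control libraries (adjusted p = 0.0657 and 0.0667).

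**Figure D2:**
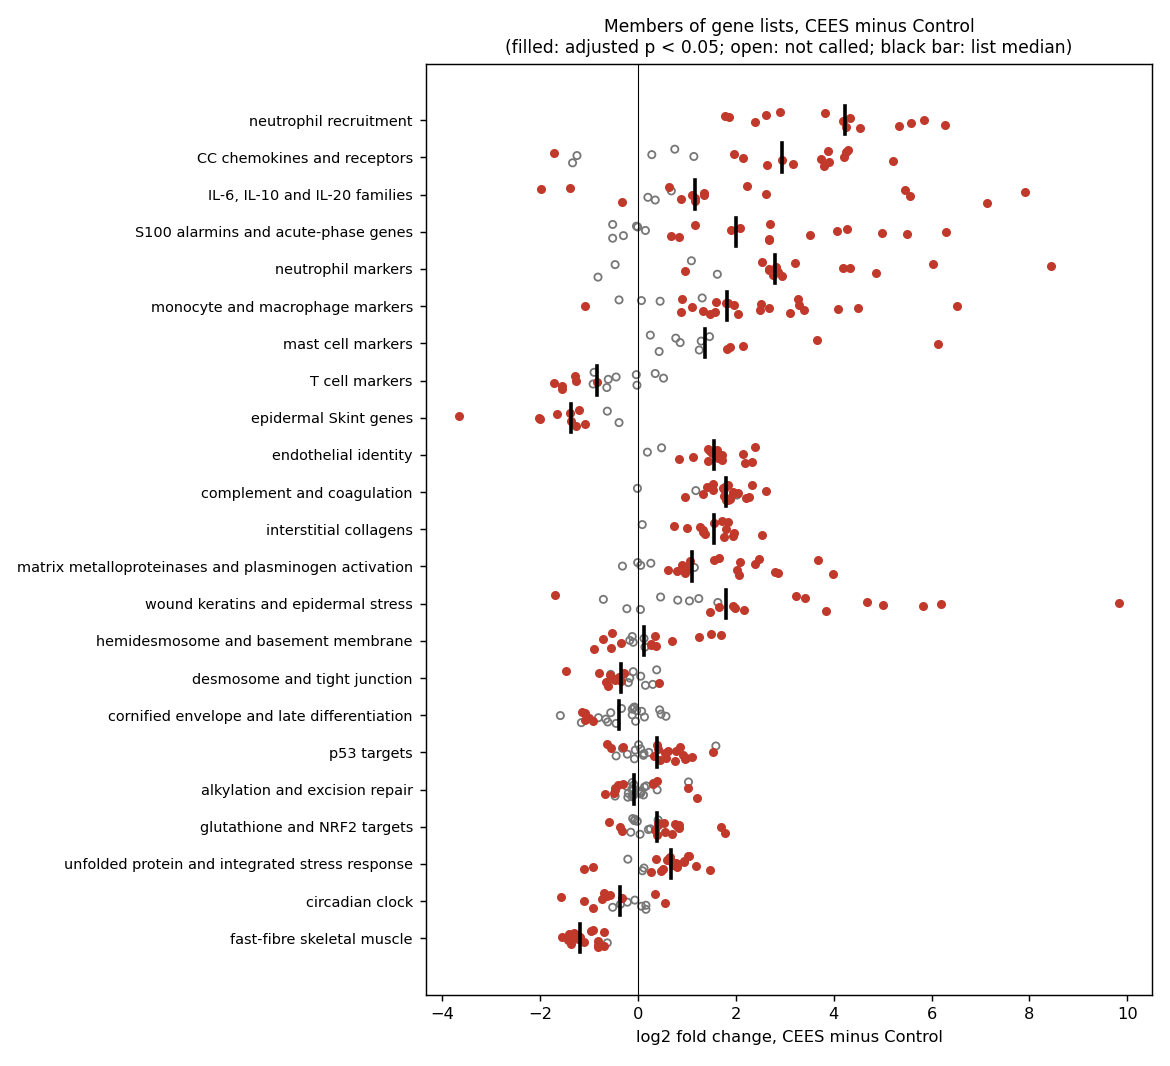
Log2 fold change, CEES minus Control, of each tested member of 23 gene lists, with filled points for called genes, open points for the others and a bar at the list median. Chemokine, myeloid, vessel and matrix lists lay to the right and Skint, T cell and fast-fibre muscle lists to the left. The values of Lce3d, Lce3a and Cd177, which had 0 counts in Control, depend on the prior count of the fit.

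Neutrophil chemoattractants and their receptors rose together. All 14 tested members of that list were raised, with a median of 4.22, against 17.8% raised and a median of -0.0356 over all genes. Cxcl1 encodes a ligand of the neutrophil receptor CXCR2. It stood at 1.07, 1.25 and 1.43 CPM in Control and at 29, 33.1 and 26.4 CPM in CEES (4.54 ± 0.33, adjusted p = 1.36e-07). Cxcl2, its close relative, stood at 1.18, 1.81 and 1.78 against 23.6, 46.8 and 22.4 CPM (4.26 ± 0.39). Cxcl5, another ligand of that receptor, went from 0.963, 1.21 and 0.714 to 66.2, 81.7 and 70.6 CPM (6.27 ± 0.49). In each of these genes every CEES library lay above every Control library. Csf3, the growth factor that releases neutrophils from bone marrow, rose by 5.84 ± 0.55, its receptor gene Csf3r by 4.34 ± 0.35 and the chemokine receptor gene Cxcr2 by 4.18 ± 0.42. Once muscle share was modelled, 12 of the 14 were still called raised.

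The promoters of 3 of these chemokine genes and of Il6 and Saa3 are shown because those genes rose together and carry motifs of factors known to act at them. The motifs were GGGA and CC with any 4 bases between them for NF-kB, TGANTCA for AP-1 and TTGCNNAA for C/EBP, searched on both strands without overlap between factors in the sequences shown. The sequences are from RefSeq (GRCm38.p6, not the build of the counts), 120 bases up to the transcription start or 250 bases for Il6, written 5′ to 3′ along the gene's strand. Capitals mark matches: NF-kB in the Cxcl genes, AP-1, C/EBP and NF-kB in that order in Il6, and C/EBP in Saa3. They span overlapping matches on both strands, so that the NF-kB stretch can run to 11 letters.
Cxcl1, chr5:90891125-90891244, plus strand: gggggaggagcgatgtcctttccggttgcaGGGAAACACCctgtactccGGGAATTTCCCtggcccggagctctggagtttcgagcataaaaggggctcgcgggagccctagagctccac
Cxcl2, chr5:90903779-90903898, plus strand: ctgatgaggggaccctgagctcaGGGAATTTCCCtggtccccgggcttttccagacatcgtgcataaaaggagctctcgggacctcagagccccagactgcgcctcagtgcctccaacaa
Cxcl3, chr5:90785981-90786100, plus strand: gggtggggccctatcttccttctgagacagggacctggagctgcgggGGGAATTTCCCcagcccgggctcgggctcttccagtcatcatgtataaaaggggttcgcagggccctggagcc
Il6, chr5:30012864-30013113, plus strand: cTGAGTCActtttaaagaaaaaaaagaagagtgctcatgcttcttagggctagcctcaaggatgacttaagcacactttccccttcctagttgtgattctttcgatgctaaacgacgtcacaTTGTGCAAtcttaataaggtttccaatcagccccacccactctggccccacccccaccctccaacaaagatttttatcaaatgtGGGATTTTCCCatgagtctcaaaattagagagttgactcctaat
Saa3, chr7:46715677-46715796, minus strand: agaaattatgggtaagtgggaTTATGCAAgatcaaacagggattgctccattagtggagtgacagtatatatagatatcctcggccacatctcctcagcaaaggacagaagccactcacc

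The 3 chemokine promoters share the letters GGGAATTTCC, which begin 71 bases before the start in Cxcl1, 97 in Cxcl2 and 73 in Cxcl3. Over promoters of 300 bases (250 before and 50 after the start), 13445 tested genes had an entry. The NF-kB letters stood in 25.5% of all of these, in 23.8% of the 160 raised by more than 8-fold and in 34.9% of the 43 raised members of the chemokine, interleukin and acute-phase lists. The AP-1 letters stood in 6.1, 15.6 and 14.0% in the same order, and the C/EBP letters in 8.93, 19.4 and 25.6%. In the 721 genes lowered by more than 2-fold the 3 shares were 26.5, 8.18 and 11.4%. The promoters also differed in base composition, which bears on how often a motif occurs. Their median GC content was 59.3% over all genes and 48.3% in the genes raised by more than 8-fold. It was 55.0% in those raised by more than 2-fold and 55.3% in those lowered by more than 2-fold. These shares are a description, and the part of base composition in them was not tested.

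Of 19 members of the IL-6, IL-10 and IL-20 families 13 were raised and 3 lowered, with a median of 1.16. Il6, which drives the acute phase, stood at 0, 0.279 and 0.195 CPM in Control and at 24.6, 26.4 and 22.3 CPM in CEES (7.14 ± 0.69). Osm, a myeloid cytokine of the same family, stood at 0.214, 0.558 and 0.227 against 12.8, 23.9 and 10.1 CPM (5.55 ± 0.46). Il24, an IL-20 family ligand, went from 0.268, 0.139 and 0.454 to 9.22, 21.5 and 9.94 CPM (5.45 ± 0.47). For Osm and Il24 CEES 2 was the highest library, and the groups did not overlap. The shared receptor subunit genes Il6st (1.16 ± 0.13) and Osmr (1.10 ± 0.10) rose, as did Socs3, the feedback inhibitor of this pathway (2.22 ± 0.17).

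The receptor chains for IL-19 and IL-24 moved the other way. Il20ra stood at 61.7, 51.4 and 56.1 CPM in Control and at 15, 11.1 and 16.8 CPM in CEES (-1.98 ± 0.21, adjusted p = 3.4e-06). Il20rb, its partner chain, stood at 104, 109 and 105 against 50, 29.4 and 42.2 CPM (-1.39 ± 0.16, adjusted p = 7.63e-06). The groups did not overlap in either gene, and both calls were kept under every alternative run. In whole tissue, fewer cells of a type and less RNA per cell cannot be told apart, for these genes and all that follow.

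Of the IL-1 family 7 of 18 members were raised and none lowered, with a median of 0.14. Il1b, the ligand made by myeloid cells, stood at 4.01, 5.07 and 4.35 CPM in Control and 78.4, 114 and 84.4 CPM in CEES. Il1a, the keratinocyte ligand, was not called (-0.39 ± 0.25, adjusted p = 0.254). Il33, an alarmin of barrier cells, rose by 2.74 ± 0.24 and its receptor gene Il1rl1 by 2.67 ± 0.33. The IL-4 receptor gene Il4ra went from 53.9, 55.4 and 60.2 to 422, 699 and 461 CPM (3.22 ± 0.20). Among CC chemokines and receptors 13 of 19 were raised and 1 lowered, with a median of 2.95. Ccl7, which attracts monocytes, rose by 5.21 ± 0.45, and the receptor gene Ccr2 by 3.88 ± 0.22. The lowered member was Ccl27a, a skin chemokine for T cells (-1.71 ± 0.23). Under the muscle covariate, 5 of the 7 and 10 of the 13 were called raised, and the call of Il1rl1 ended.

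**Figure D3:**
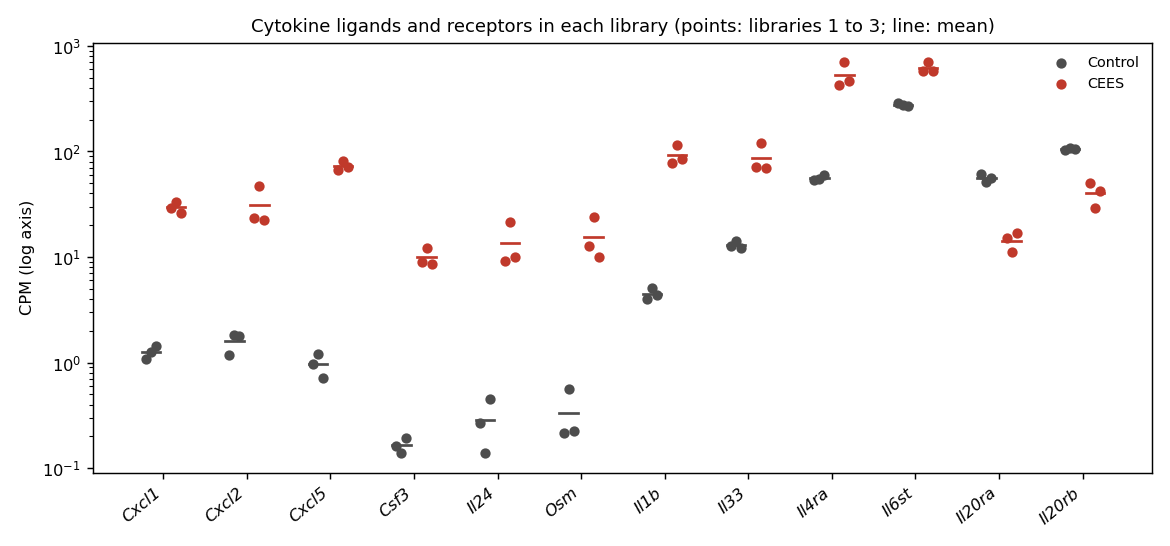
CPM (log axis) of 12 cytokine, chemokine and receptor genes in the Control (grey) and CEES (red) libraries, with a point for each library and a line at the mean. No gene overlaps between the groups; Il20ra and Il20rb are lower in CEES and the others higher, with CEES 2 highest for most of the raised genes.

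Of the TNF and NF-kB list 11 of 19 were raised and 1 lowered, with a median of 0.56. The raised members included Bcl3 (1.65 ± 0.14), Nfkbie (1.46 ± 0.13) and the receptor gene Tnfrsf1b (1.32 ± 0.14), and the lowered one was the NF-kB subunit gene Rel (-0.39 ± 0.10). Tnf itself stood at 4.12, 3.49 and 4.41 CPM against 6.42, 9.38 and 4.59 CPM (0.76 ± 0.23, adjusted p = 0.0163). That call rested on CEES 2 and Control 2, without which the change was 0.46 and 0.69 (adjusted p = 0.12 and 0.05). Interferon-stimulated genes had 5 of 22 raised and 3 lowered, or 22.7 and 13.6% beside 17.8 and 16.2% of all genes, with a median of 0.48. Cxcl9, a chemokine induced by interferon gamma, was lower (-2.51 ± 0.39, adjusted p = 0.000122), at 2.89, 2.09 and 2.17 CPM in Control and 0.306, 0.734 and 0.178 CPM in CEES. Zbp1 (1.33 ± 0.30) and Oas2 (1.10 ± 0.29) were higher. Among prostaglandin and leukotriene enzymes 7 of 17 were raised and 3 lowered, or 41.2 and 17.6% beside 17.8 and 16.2% of all genes. The inducible cyclooxygenase gene Ptgs2 rose by 2.49 ± 0.26, whereas the constitutive Ptgs1 (-0.54 ± 0.14) and the prostaglandin D synthase gene Hpgds (-0.64 ± 0.14) fell. In the fit with muscle share, 7 and 0 of the TNF and NF-kB list, 1 and 1 of the interferon-stimulated genes and 4 and 1 of the prostaglandin and leukotriene enzymes were called raised and lowered, and the calls of Tnf, Rel, Zbp1, Oas2, Ptgs1 and Hpgds ended.

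Acute-phase genes and alarmins had 14 of 20 members raised and none lowered, with a median of 2.0. Saa3, a serum amyloid of inflamed tissue, stood at 2.68, 3.25 and 3.18 CPM in Control and 207, 267 and 244 CPM in CEES. Hp (haptoglobin) rose by 4.06 ± 0.32, Lcn2, an iron-binding defence protein gene, by 3.51 ± 0.31 and the alarmin gene S100a8 by 2.68 ± 0.51. S100a8 lay at 14, 44.9 and 12.9 CPM in CEES, again highest in CEES 2, and its call ended with muscle share as a covariate. Complement and coagulation genes moved almost as a block, with 20 of 23 raised and none lowered and a median of 1.80. C3, the central complement component, stood at 73.7, 76.4 and 77.1 CPM against 327, 423 and 340 CPM (2.26 ± 0.27, adjusted p = 1.1e-05). The complement protease gene C1s1 rose by 2.21 ± 0.24 and the clot-crosslinking factor gene F13a1 by 2.33 ± 0.25. Adjusted for muscle share, 12 of the 20 were called.

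Markers of myeloid cells were higher in CEES. Neutrophil markers had 14 of 18 raised and none lowered, with a median of 2.79, which did not change with Cd177 at its bound (0 counts in Control, at least 49.9-fold higher, with a call that ended under the muscle covariate). The neutrophil markers Ly6g and Elane did not pass the count filter and were not tested. Monocyte and macrophage markers had 21 of 26 raised and 1 lowered, with a median of 1.81. Mrc1, the mannose receptor gene of tissue macrophages, stood at 34.6, 33.8 and 37.6 CPM in Control and at 643, 1067 and 687 CPM in CEES. Cd163, the haemoglobin scavenger receptor gene, stood at 10.8, 5.53 and 10.2 against 134, 174 and 142 CPM (4.08 ± 0.36). Lyve1 rose by 3.27 ± 0.35 and Chil3 by 6.51 ± 0.61, and both are known from mouse macrophages. Arg1, an arginase gene linked to repair, stood at 7.38, 59.7 and 8.34 CPM in CEES against 4.12, 3.16 and 4.51 CPM in Control, so that its change of 2.67 ± 0.58 came mainly from CEES 2 (1.00 without it), and its call ended with muscle share as a covariate. Retnla was the lowered marker (-1.08 ± 0.36, adjusted p = 0.0299), a call that ended without Control 1, Control 3, CEES 1 or CEES 3 and with muscle share as a covariate. With muscle share as a covariate 6 of the 14 neutrophil and 15 of the 21 macrophage markers were called raised.

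Mast cell genes did not move evenly. Of 12 markers 5 were raised and none lowered, with a median of 1.37. Tpsab1, a tryptase gene, stood at 0.161, 0.139 and 0.162 CPM in Control and 10.9, 10.1 and 12.7 CPM in CEES (6.13 ± 0.63), and Hdc, which makes histamine and is also expressed by other myeloid cells, at 4.65, 3.67 and 5.55 against 55.3, 67.5 and 53.4 CPM (3.65 ± 0.41). The protease genes Tpsb2 (2.15 ± 0.46), Mcpt4 (1.87 ± 0.53) and Cma1 (1.82 ± 0.47) rose less. Kit, the receptor that defines the lineage, was not called (0.43 ± 0.31, adjusted p = 0.3), nor was Cpa3 (1.25 ± 0.56, adjusted p = 0.0963). Cpa3 was called raised without the count filter, with replicate number as a block and without Control 1. Control 2 was low in Tpsb2, Mcpt4, Cma1, Cpa3 and Kit, at 0.883 CPM for Tpsb2 against 5.03 and 3.44 CPM in the other Control libraries. When muscle share entered as a covariate, the calls of Tpsb2, Mcpt4 and Cma1 ended, and those of Tpsab1 and Hdc were kept.

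Most lymphocyte genes that changed were lower in CEES. T cell markers had none of 15 raised and 6 lowered, with a median of -0.84. Cd3e, a chain of the T cell receptor complex, stood at 8.29, 4.69 and 5.74 CPM in Control and 2.14, 2.33 and 1.87 CPM in CEES (-1.55 ± 0.29). Trdc, the constant region of the gamma-delta receptor carried by the T cells of mouse epidermis, stood at 5.03, 2.04 and 3.5 against 1.27, 1.35 and 0.58 CPM (-1.71 ± 0.39, adjusted p = 0.00283). Cd3e and Trdc had no overlap. With muscle share as a covariate 3 of the 6 lowered markers kept their calls, Cd3e and Trdc among them. The Skint genes, which encode membrane proteins of keratinocytes, had 9 of 11 lowered and none raised, with a median of -1.37. Skint7 had the largest change, at 27.1, 24.7 and 28.2 CPM against 2.75, 1.84 and 1.69 CPM (-3.67 ± 0.38, adjusted p = 2.79e-06). Once muscle share was modelled, 4 of the 9 were called. B and plasma cell genes had 1 of 12 raised and 5 lowered, with a median of -1.13, such as Ighm (-1.34 ± 0.18), and 1 of the 5, not Ighm, was called with muscle share as a covariate. Langerhans and dendritic cell markers had 5 of 16 raised and none lowered, with Cd209a at 4.16 ± 0.48, and 2 of the 5 were called with that covariate. The Langerhans cell gene Cd207 was not called (-0.68 ± 0.36, adjusted p = 0.152).

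Vessel genes were raised in CEES, but most of these calls ended with muscle share as a covariate. Endothelial identity genes had 14 of 16 raised and none lowered, with a median of 1.56, and the activation list had 15 of 19 raised and 1 lowered, with a median of 1.44. Sele, the selectin that captures leukocytes on inflamed vessels, stood at 1.23, 0.0465 and 1.23 CPM in Control and at 13, 19.7 and 13 CPM in CEES (4.15 ± 0.55). Cdh5, the cadherin gene of vessel walls, stood at 21.5, 13.8 and 16.9 against 72.8, 118 and 70.1 CPM (2.32 ± 0.37). Thbd (thrombomodulin) rose by 2.48 ± 0.19 and the adhesion gene Icam1 by 1.31 ± 0.11. Vegfa was not called (0.14 ± 0.15, adjusted p = 0.533). Under the muscle covariate, 1 of the 14 identity genes and 4 of the 15 activation genes were called raised. Those calls included Thbd and Icam1, whereas Sele had an adjusted p of 0.175 and Cdh5 of 0.156.

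Genes of the dermal matrix rose in CEES. Interstitial collagens had 14 of 15 raised and none lowered, with a median of 1.56, and fibroblast identity genes 14 of 16 and none, with a median of 1.46. Col3a1, the collagen of young scar tissue, stood at 801, 745 and 984 CPM in Control and at 4372, 4987 and 5276 CPM in CEES (2.53 ± 0.23, adjusted p = 7.64e-07). Col1a1 stood at 1886, 1478 and 2149 against 5679, 6037 and 6789.8 CPM (1.75 ± 0.22). The fibroblast receptor gene Pdgfra rose by 3.54 ± 0.31 and the proteoglycan gene Lum by 2.76 ± 0.20. The provisional matrix of wounds had 17 of 19 raised and none lowered, with a median of 1.62. Its largest change was in Tnfaip6, a hyaluronan-binding protein gene induced by inflammation, at 0.91, 0.836 and 1.72 CPM against 64.7, 63.4 and 64.4 CPM (5.72 ± 0.35, adjusted p = 4.27e-08). Tenascin C (Tnc, 2.03 ± 0.19), versican (Vcan, 2.75 ± 0.28) and fibronectin (Fn1, 1.62 ± 0.24) also rose, Fn1 with CEES 2 at 1391 CPM and the other CEES libraries at 632 and 603 CPM. Acta2, the actin of myofibroblasts and vessel muscle, was not called (-0.27 ± 0.22, adjusted p = 0.377). In the fit with muscle share, 7 of the 14 collagens, 6 of the 14 fibroblast genes and 10 of the 17 wound matrix genes were called raised. Over all genes, 2920 of the 7640 calls were kept in that fit. There the call of Fn1 ended, and Acta2 was called lowered (-1.354).

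Proteases of the matrix had 19 of 24 members raised and none lowered, with a median of 1.11. Mmp3 (stromelysin), expressed by fibroblasts and myeloid cells, stood at 5.35, 6.97 and 7.07 CPM in Control and 74.8, 149 and 85.1 CPM in CEES (3.98 ± 0.36). The urokinase receptor gene Plaur rose by 2.40 ± 0.20, the aggrecanase gene Adamts4 by 3.67 ± 0.48 and the myeloid protease gene Adam8 by 2.09 ± 0.18. Mmp9, a gelatinase reported in mustard injury, stood at 41.7, 29.9 and 39.7 against 59.3, 91.7 and 63.5 CPM (0.95 ± 0.17, adjusted p = 0.000343). Outside the list, the inhibitor gene Timp1 rose by 3.21 ± 0.24, and Timp3, a member, was not called (-0.32 ± 0.12, adjusted p = 0.0551). Timp3 was called lowered with upper-quartile scaling, other count filters, only the CEES and Control libraries or replicate number as a block, and without Control 2. Of TGF-beta and activin genes 10 of 21 were raised and 2 lowered. The receptor gene Tgfbr2 rose by 1.5 ± 0.16 and the activin gene Inhba by 1.21 ± 0.18, while Bmp4 fell (-1.18 ± 0.21). Adjusted for muscle share, 8 of the 19 proteases and 5 of the 10 raised TGF-beta and activin genes were called, the calls of Mmp9, Adamts4 and Inhba ended, and Timp3 was called lowered (-0.956).

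Genes that fix the epidermis to the dermis went in both directions. Of 18 hemidesmosome and basement membrane genes 8 were raised and 5 lowered, with a median of 0.13. Col17a1, the transmembrane collagen of hemidesmosomes, stood at 1189, 1338 and 1252 CPM in Control and at 716, 628 and 674 CPM in CEES (-0.90 ± 0.10, adjusted p = 7.25e-06). Col7a1, the collagen of the anchoring fibrils, stood at 209, 288 and 248 against 160, 122 and 170 CPM (-0.72 ± 0.17, adjusted p = 0.00384). Dst, which holds the gene for the hemidesmosome plakin BPAG1, fell by 0.55 on the log2 scale (± 0.09), and Lama3, the alpha chain gene of laminin 332, by 0.34 (± 0.07).

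The beta chain gene of that laminin, Lamb3, was not called (-0.10 ± 0.12, adjusted p = 0.571). The integrin chain genes Itga6 (0.37 ± 0.10) and Itgb4 (0.26 ± 0.08) rose by small amounts and Itgb1, whose product joins many integrins in all skin cells, by 1.24 ± 0.12. No library overlapped for Col17a1, Col7a1, Dst, Lama3, Itga6, Itgb4 or Itgb1. With muscle share as a covariate Col17a1 kept its call, and those of Col7a1 (adjusted p = 0.456), Dst (0.324) and Lama3 (0.136) ended, while Lamb3 was called raised (0.73, adjusted p = 0.0101). The call of Itgb4 ended with upper-quartile scaling (adjusted p = 0.073) and without 3 of the 6 libraries in turn. It also ended with only the CEES and Control libraries (adjusted p = 0.0516) and with replicate number as a block (0.0829).

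Basal keratinocyte genes had 1 of 15 raised and 8 lowered, with a median of -0.36. Trp63, the master regulator of epidermal basal cells, stood at 414, 405 and 395 CPM in Control and 294, 287 and 272 CPM in CEES (-0.51 ± 0.07, adjusted p = 5.71e-05). Lgr6, a gene of follicle stem cells, fell further (-1.22 ± 0.21). The basal keratins differed, with Krt14 not called (-0.12 ± 0.12, adjusted p = 0.466) and Krt5 lower by a small amount (-0.36 ± 0.10, adjusted p = 0.013). The Krt5 call ended without Control 2 or CEES 2, with total counts and with muscle share as a covariate. It also ended with only the CEES and Control libraries (adjusted p = 0.0667) and with replicate number as a block (0.101). Desmosome and tight junction genes had 1 of 19 raised and 10 lowered, with a median of -0.34. The plakoglobin gene Jup (-0.48 ± 0.08), the desmoglein gene Dsg1a (-0.62 ± 0.15), the claudin gene Cldn1 (-0.58 ± 0.10) and the tight junction scaffold gene Tjp3 (-1.48 ± 0.22) were among those that fell. When muscle share entered as a covariate, 5 of the 8 and 5 of the 10 were called lowered, and the call of Dsg1a ended.

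**Figure D4:**
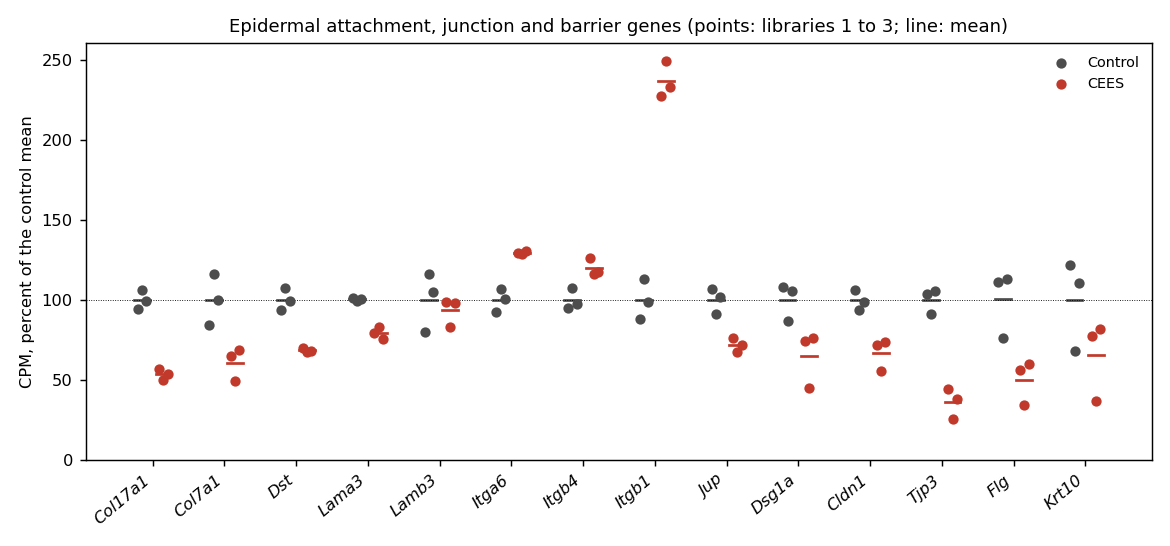
CPM of 14 genes of epidermal attachment, junctions and barrier as a percent of the Control mean, in the Control (grey) and CEES (red) libraries, with a point for each library and a line at the mean. Col17a1 lies lowest among the hemidesmosome genes shown, the integrin genes lie above the Control mean, and Krt10 overlaps, with library 2 lowest in both groups.

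In the upper epidermis most cornified envelope genes were not called, with none of 24 raised and 5 lowered. The lowered share was 20.8% beside 16.2% of all genes, and the median was -0.40. Krt10, the keratin of suprabasal cells, stood at 1623, 906 and 1478 CPM in Control and at 1034, 489 and 1090.2 CPM in CEES (-0.62 ± 0.25, adjusted p = 0.0705). Krt1, its partner, had -0.45 ± 0.22 (adjusted p = 0.129) and Lor (loricrin) -0.66 ± 0.28 (adjusted p = 0.0808). Flg (filaggrin) stood at 385, 265 and 393 against 195, 118 and 207 CPM (-1.01 ± 0.26, adjusted p = 0.00748), without overlap. Library 2 was the lowest of its group for each of these genes. Ivl (involucrin, -1.09 ± 0.18) and the filaggrin-processing protease gene Casp14 (-1.15 ± 0.27) also fell. Other settings called up to 13 of the 24 lowered. Krt10 was called with upper-quartile scaling, without the count filter, with DESeq2, with replicate number as a block and without Control 2 or CEES 3. Krt1 and Lor were called without the count filter and with that block, and Lor also without Control 2. The calls of Flg and Casp14 ended with muscle share as a covariate (adjusted p = 0.315 and 0.129). Of the barrier lipid enzymes 3 of 20 were raised and 6 lowered, or 15.0 and 30.0% beside 17.8 and 16.2% of all genes. Ugcg, the first step to the glucosylceramides of the barrier, rose from 36.6, 30 and 39.7 to 107, 130 and 118 CPM (1.74 ± 0.19), while the lipoxygenase gene Aloxe3 (-1.38 ± 0.27) and the lipase gene Pnpla1 (-1.13 ± 0.19) fell. Once muscle share was modelled, 1 of the 6, which was Pnpla1, was called lowered.

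Keratins and envelope genes of wounded epidermis had 13 of 22 raised and 1 lowered, with a median of 1.79 that did not change with the genes at 0 in Control set at their bounds. Krt6b stood at 24.8, 24.9 and 27 CPM in Control and 358, 416 and 330 CPM in CEES. Krt16 went from 146, 153 and 148 to 636, 703 and 660 CPM (2.16 ± 0.21). Krt17, a wound keratin that follicles express at rest, was not called (0.047 ± 0.10, adjusted p = 0.754). With muscle share as a covariate 7 of the 13 kept their calls. The EGF receptor family and its ligands, which drive keratinocyte migration and growth, went in both directions. In that list 8 of 15 were raised and 6 lowered. Nrg1 stood at 20.4, 14.2 and 14.4 CPM against 66.5, 89.2 and 59.6 CPM (2.14 ± 0.16). Areg rose by 1.51 ± 0.22, Tgfa by 1.21 ± 0.13 and the feedback inhibitor gene Errfi1 by 1.18 ± 0.09. Erbb2 (-0.62 ± 0.11), Erbb3 (-0.53 ± 0.09) and Erbb4 (-2.28 ± 0.47) were lower, and Egfr was not called (0.17 ± 0.10, adjusted p = 0.232). Under the muscle covariate, 4 of the 8 raised genes, Nrg1 and Errfi1 among them, and none of the 6 lowered genes were called in their direction.

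Targets of p53, a transcription factor activated by DNA damage, changed by modest amounts. Of 29 members 15 were raised and 3 lowered, with a median of 0.38. Cdkn1a, the cell cycle inhibitor p21, stood at 87.5, 79.5 and 82.3 CPM in Control and 133, 146 and 143 CPM in CEES (0.76 ± 0.11, adjusted p = 6.72e-05). Mdm2, the negative regulator of p53, stood at 52.6, 58.6 and 60.7 against 74.6, 79 and 80.4 CPM (0.44 ± 0.07, adjusted p = 0.000142). Polk, a DNA polymerase that copies past bulky adducts, stood at 18.4, 17.1 and 16.6 against 31.6, 31.9 and 31.3 CPM (0.86 ± 0.10). All CEES libraries lay above all Control libraries in these genes. The death genes Eda2r (1.53 ± 0.12), Tnfrsf10b (1.11 ± 0.12), Bax (0.95 ± 0.15) and Pmaip1 (0.98 ± 0.22) and the p53 cofactor gene Trp53inp1 (0.33 ± 0.07) were raised, and Bbc3 (PUMA) was not called (-0.075 ± 0.23, adjusted p = 0.834). Tigar (-0.63 ± 0.20), Ddb2 (-0.55 ± 0.18) and Xpc (-0.31 ± 0.11) were lower, but each of these calls ended without at least 3 of the 6 libraries in turn, and Tigar stood at 0.74 with muscle share as a covariate. In the fit with muscle share, 11 of the 15 were called raised, with Bax (adjusted p = 0.178) among those that were not.

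Repair genes for alkylated and bulky bases showed no common direction. Of 30 members 5 were raised and 6 lowered, or 16.7 and 20.0% beside 17.8 and 16.2% of all genes, with a median of -0.09. Ercc1, part of the nuclease that cuts beside bulky adducts, stood at 17.1, 14.6 and 14.4 CPM in Control and 30.2, 35.6 and 27.8 CPM in CEES (1.02 ± 0.11, adjusted p = 4.72e-06). Polb, the polymerase of base excision repair, stood at 61.3, 59.2 and 62.6 against 39.2, 33.6 and 42.4 CPM (-0.67 ± 0.09, adjusted p = 2.26e-05), and its scaffold gene Xrcc1 fell by 0.50 on the log2 scale (± 0.12). Mgmt, which reverses alkylation of guanine, lay between 0.465 and 1.77 CPM in Control and between 2.12 and 2.8 CPM in CEES (1.21 ± 0.39, adjusted p = 0.0242), a call that ended without Control 2, Control 3, CEES 1 or CEES 3 and with muscle share as a covariate. Mpg, the glycosylase for alkylated purines, was not called (-0.21 ± 0.19, adjusted p = 0.435), nor was Parp1 (0.067 ± 0.11, adjusted p = 0.671). Adjusted for muscle share, 2 of the 30 were called raised and 3 lowered, the call of Ercc1 ended at an adjusted p of 0.051, and Parp1 was called raised (0.638).

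Checkpoint, crosslink and break repair genes had 4 of 29 raised and 2 lowered, or 13.8 and 6.9% beside 17.8 and 16.2% of all genes, with a median of 0.15. Fancd2, the hub of crosslink repair, rose by 0.45 ± 0.11 and Rbbp8, which starts resection of broken ends, fell by 0.44 on the log2 scale (± 0.08), and none of the 6 calls was kept with muscle share as a covariate. With total counts 9 of the 29 were raised. S phase and mitosis genes had 12 of 26 raised and none lowered, with a median of 0.34. Rrm2, which makes deoxynucleotides, stood at 21.5, 31.4 and 27.4 CPM against 49.1, 48.5 and 51.1 CPM (0.89 ± 0.11). Mcm4, of the replicative helicase, rose by 0.43 ± 0.07, and Mki67 was not called (-0.13 ± 0.11, adjusted p = 0.415). With muscle share as a covariate 6 of the 12 were called, Rrm2 and Mcm4 among them.

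Genes of the glutathione and thioredoxin systems, which buffer electrophiles, had 13 of 25 raised and 3 lowered, with a median of 0.38. Hmox1, a heme-degrading NRF2 target, stood at 23.5, 20.1 and 25 CPM in Control and 68.2, 95.1 and 73.2 CPM in CEES (1.78 ± 0.27). Slc7a11, the cystine importer, rose by 1.69 ± 0.26 and Txn1 (thioredoxin) by 0.84 ± 0.13. Gclc, the catalytic subunit of glutathione synthesis, was not called (-0.15 ± 0.16, adjusted p = 0.5). Glutathione transferases had 1 of 21 raised and 5 lowered, or 4.76 and 23.8% beside 17.8 and 16.2% of all genes, with a median of -0.18. Gstm1 stood at 47.2, 58.1 and 47.1 against 27.8, 31.5 and 28.1 CPM (-0.80 ± 0.11, adjusted p = 3.42e-05), and Gstm5 (-0.67 ± 0.12) and Mgst3 (-0.62 ± 0.09) also fell. Gstm genes are close paralogs, so reads shared among them are uncertain. The zinc importer gene Slc39a14 rose from 67.6, 47.2 and 60 to 286, 384 and 301 CPM (2.47 ± 0.17) and the metallothionein gene Mt1 by 2.09 ± 0.21. When muscle share entered as a covariate, 8 of the 13 kept their calls, as did 1 of the 5 lowered transferases, and those of Gstm1, Gstm5, Mgst3 and Hmox1 ended, the last at an adjusted p of 0.054, and Gclc was called lowered.

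Of 25 genes of the unfolded protein and integrated stress responses 20 were raised and 2 lowered, with a median of 0.67, and with muscle share as a covariate 17 of the 20 were called. Hspa5 (BiP) stood at 141, 196 and 158 CPM in Control and 372, 348 and 406 CPM in CEES (1.19 ± 0.15, adjusted p = 2.16e-05). Trib3 (1.46 ± 0.24) and Creld2 (1.05 ± 0.15) rose, whereas the glutathione-degrading Chac1 fell (-1.11 ± 0.19) and Ddit3 (CHOP) was not called (0.089 ± 0.14, adjusted p = 0.657). Heat shock chaperones had 7 of 20 raised and none lowered, with a median of 0.25, and 9 raised with muscle share as a covariate, 10 with total counts and 3 to 8 when 1 library was left out. Cryab, a small heat shock protein gene also abundant in muscle, stood at 102, 98.6 and 103 against 445, 393 and 492 CPM (2.13 ± 0.19). Hsp90aa1, the inducible HSP90, rose by 0.91 ± 0.17, and Hsp90ab1, the constitutive form, was not called (-0.075 ± 0.09, adjusted p = 0.573). Genes of inflammasomes and lytic death had 13 of 20 raised and 3 lowered, with a median of 0.62. Nlrp3 stood at 2.03, 1.86 and 2.34 CPM against 19.4, 31.8 and 18.3 CPM (3.47 ± 0.31). The necroptosis genes Ripk3 (1.83 ± 0.21) and Mlkl (1.44 ± 0.16) rose, and the inflammasome adaptor gene Pycard fell by 0.38 on the log2 scale (± 0.09). Once muscle share was modelled, 5 of the 13 were called, Nlrp3, Ripk3 and Mlkl among them.

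Adipocyte markers had 7 of 16 raised and 1 lowered, with a median of 0.46, such as Fabp4 (1.10 ± 0.27), the adipsin gene Cfd (1.32 ± 0.35) and the leptin gene Lep (1.23 ± 0.35), while Adipoq was not called (0.52 ± 0.32, adjusted p = 0.238). With muscle share as a covariate 2 of the 7 were called, and the calls of Fabp4, Cfd and Lep ended, Lep at -0.045. Hair keratins had none of 20 raised and 3 lowered, or 15.0% lowered beside 16.2% of all genes, with a median of -1.45. Under the muscle covariate, 10 were called lowered, without a filter on low counts 18, and leaving out 1 library gave 0 to 6. Control 2 was the lowest Control library in such genes as Krt72, at 21.6 CPM for Krt72 against 46.9 and 40.5 CPM in the other Control libraries. Circadian genes had 2 of 17 raised and 8 lowered, with a median of -0.36. Nr1d1, the repressor arm of the clock, stood at 103, 86 and 89.7 CPM in Control and 47.9, 42.2 and 38.9 CPM in CEES (-1.11 ± 0.11, adjusted p = 1.76e-06). Arntl (BMAL1), its activator, stood at 27.2, 24.4 and 25.1 against 11.8, 17.4 and 10.9 CPM (-0.93 ± 0.14). Hlf, an output gene, fell further (-1.58 ± 0.22), and Per1 was not called (0.069 ± 0.10, adjusted p = 0.62). Nr1d1, Arntl and Hlf kept their calls with muscle share as a covariate, where 3 of the 8 were called lowered. The labels give no hour of sampling, and its part in these values was not tested.

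Among muscle genes, 18 of 19 of the fast-fibre list were lowered and none raised, with a median of -1.19, and with the share of that same list as a covariate none was called lowered and 5 raised. The slow-fibre and cardiac-type list had 1 of 10 raised and 1 lowered, with a median of -0.08. Its share of gene counts was 0.0377% ± 0.00112 in Control and 0.0473% ± 0.00107 in CEES (SD, n = 3), without overlap. A few muscle genes rose against the fall of the fast-fibre list. Ankrd1, a stress gene of injured muscle, stood at 12.3, 3.9 and 8.08 CPM in Control and 94.3, 84.5 and 98.2 CPM in CEES (3.53 ± 0.26). Csrp3, a muscle LIM protein gene, stood at 35, 39.5 and 39.6 against 199, 116 and 204 CPM, and the regeneration factor gene Myog rose by 1.60 ± 0.20. Mstn (myostatin), the inhibitor of muscle growth, stood at 98.2, 208 and 113 against 37.7, 16.5 and 37.7 CPM (-2.19 ± 0.28), and its call ended with muscle share as a covariate (adjusted p = 0.381). Mitochondrially encoded genes had 7 of 10 lowered and none raised, with a median of -0.89, and 1 of the 7 was called lowered with muscle share as a covariate. Nuclear genes of oxidative phosphorylation had 4 of 22 lowered, or 18.2% beside 16.2% of all genes, and none raised, and with that covariate none lowered and 17 raised. Glycolysis and hypoxia genes had 12 of 25 raised and 4 lowered, and 18 and none with the covariate. Adm, the adrenomedullin gene, rose by 3.28 ± 0.44 and the hypoxia factor gene Hif1a by 0.88 ± 0.13, while the muscle genes Pfkm (-1.02 ± 0.21) and Aldoa (-0.82 ± 0.19) fell, both in the other direction with muscle share as a covariate (0.651 and 0.645).

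The last comparison set CEES against PAO, an arsenical that injures skin by binding thiols. The agents differ in structure, dose and mode of action, and their doses were not matched. Both were measured against the same Control libraries, so their effects share that error, and only the direct test of CEES minus PAO is read as a difference. That test called 18.9% of genes, 9.86% higher and 9.02% lower in CEES, and with muscle share as a covariate, which differed between these groups too, 1052 genes. PAO against Control called 20.4%, 11.9% raised and 8.58% lowered. The muscle share was 9.14% ± 0.305 in PAO. The pancreas share was 0.154% ± 0.0325 in PAO, and all 22 tested pancreas genes stood lower in CEES than in PAO. The PAO libraries carry codes 4 to 6, and separate handling cannot be told apart from the agent here either. Of the neutrophil chemoattractants 11 of 14 stood higher after CEES and none lower. Cxcl2 averaged 1.59 ± 0.359 CPM (SD, n = 3) in Control, 30.9 ± 13.8 in CEES and 3.99 ± 0.548 in PAO (CEES minus PAO 2.95 ± 0.36 SE, adjusted p = 4.47e-05). Il6 averaged 24.4 ± 2.08 CPM in CEES and 4.47 ± 3.28 in PAO (2.43 ± 0.47), and Cd163 149.9 ± 21.6 and 16.2 ± 8.48 CPM (3.20 ± 0.35). Mast cell genes stood higher in CEES for 10 of 12, and Tnfaip6 by 3.23 ± 0.30. The p53 list had 13 of 29 higher in CEES and 4 lower, Polk by 0.85 ± 0.10 and Cdkn1a by 0.57 ± 0.11. Of S phase and mitosis genes 17 of 26 were higher and none lower.

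Of cornified envelope genes 23 of 24 were lowered after PAO and 5 after CEES. In the direct test 19 of 24 were higher in CEES, Krt10 by 1.53 ± 0.26 (adjusted p = 0.000697) and Lor by 1.54 ± 0.29. In the basement membrane list 10 of 18 were lower in CEES and 2 higher. Col17a1 differed by -0.60 ± 0.10 and Col7a1 by -1.03 ± 0.17 (adjusted p = 0.000631), the latter at 308 ± 76.1 CPM in PAO. Stress programmes differed as well. Heat shock genes had 14 of 20 raised after PAO and 7 after CEES, with 11 lower in CEES by the direct test, such as Cryab (-0.65 ± 0.18). Of NRF2 and glutathione genes 11 of 25 were lower in CEES, such as Hmox1 (-1.31 ± 0.26), and of interferon-stimulated genes 13 of 22, such as Oasl1 (-2.33 ± 0.36). Some genes showed no difference that the test could call. Saa3 differed by 0.43 ± 0.32 (adjusted p = 0.401), Mmp3 by -0.30 ± 0.30 (0.538) and the p53 target Eda2r by -0.22 ± 0.12 (0.217). Adipocyte genes stood higher in CEES for 9 of 16, Adipoq by 2.08 ± 0.36, and the muscle stress gene Ankrd1 stood lower (-1.72 ± 0.23). In the fit with muscle share, the calls of Il6, Col17a1, Krt10, Polk, Hmox1, Cryab, Cdkn1a, Col7a1, Lor, Cd163, Adipoq and Oasl1 between the agents ended, and that of Cryab also ended with total counts and without CEES 2, PAO 1 or PAO 3.

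**Figure D5:**
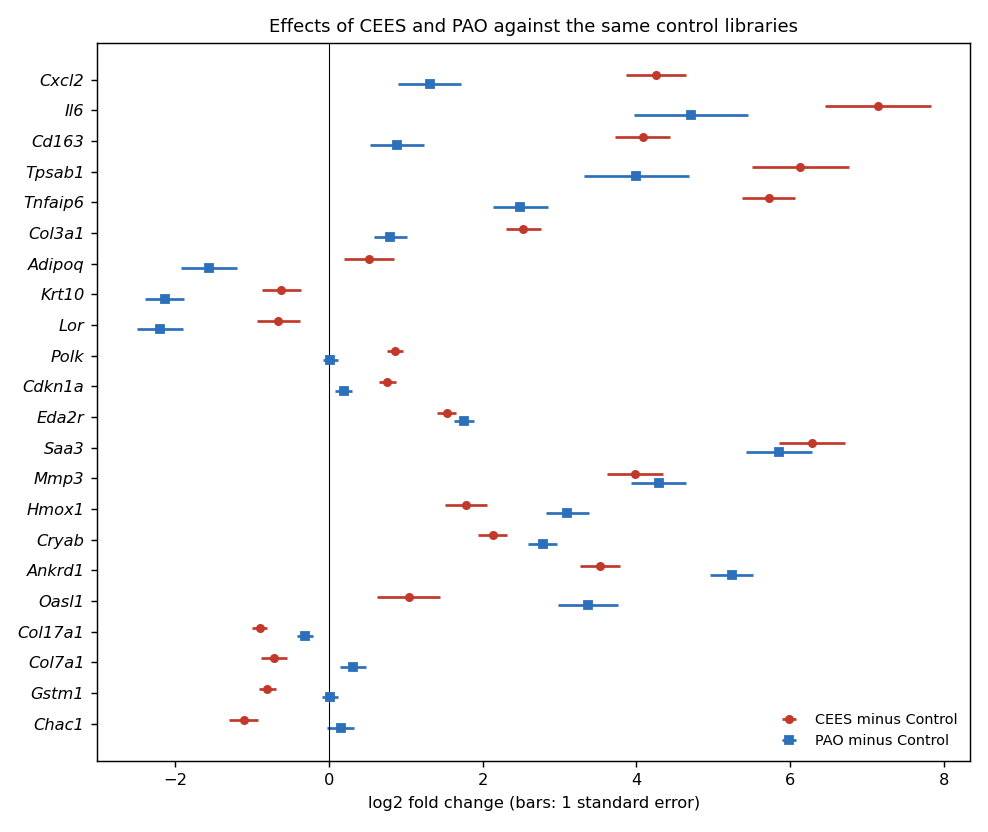
Log2 fold changes against the same 3 Control libraries for CEES (red circles) and PAO (blue squares), with bars of 1 standard error, for 22 genes. Cxcl2, Cd163, Tnfaip6 and Polk lie further right for CEES, Hmox1, Ankrd1 and Oasl1 further right for PAO, Krt10 and Lor further left for PAO, and Saa3, Mmp3 and Eda2r have neighbouring values.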

How the data were processed

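Total RNA of whole skin was depleted of ribosomal RNA and sequenced. The deposited table holds raw counts per gene and library, with no normalization. Per the submitters' processing notes, the authors used bcl2fastq 2.18.0.12, Trim Galore 0.6.7, STAR 2.7.10a and HTSeq 2.0.2 with GRCm39; the strand setting of the counting is not given in the sources used here, and values of antisense and overlapping genes are uncertain. The 5 summary entries of the counting were left out. Symbols were found for 52093 of 53700 gene identifiers.

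Counts were fitted with edgeR 4.0.16 (R 4.3.3, limma 3.58.1): TMM scaling, default filter on low counts, a mean per group over all 15 libraries (10 residual degrees of freedom), quasi-likelihood tests and Benjamini-Hochberg adjustment over 22529 genes, with calls at an adjusted p under 0.05. All adjusted p-values in the text are of this kind, and ± after a log2 fold change is 1 standard error. CPM are on TMM-scaled libraries. The fitting was tested on simulated counts with 200 changed genes. The data had 7640 calls, so that simulation cannot check the scaling when so many genes change. Alternatives were other scalings and filters, DESeq2 1.42.0, a muscle-share covariate, a replicate block, and leaving out each library. Further fits left out the muscle, mitochondrial and pancreas genes or used only the CEES and Control libraries.

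The groups and the gene lists (56 lists, 1075 of 1081 entries matched) were chosen with earlier results of these data known. Lists are described by counts and medians, without a set test. Genes were named by a rule: the 12 largest rises and falls and the 8 largest gains and losses in CPM among called genes that averaged 5 CPM or more in either group, with no overlap between the groups, an ordinary symbol (no Gm number, Rik, immunoglobulin or T cell receptor segment) and a place outside the pancreas, fast-fibre and slow-fibre muscle and mitochondrially encoded lists, leading and uncalled members of each list, and a fixed set. Outside the rule, and chosen after their values were seen, are Adamts4, Adipoq, Arg1, Bax, Bbc3, C1s1, C3, Ccl7, Cd163, Cd177, Cd207, Creld2, Cxcl3, Cxcr2, Ddit3, Dsg1a, Fn1, Gclc, Hspa5, Il1a, Il1rl1, Il6st, Inhba, Krt16, Lamb3, Lce3a, Lep, Lyve1, Mcpt4, Mmp3, Oasl1, Osmr, Parp1, Pmaip1, S100a8, Sele, Trib3 and Vcan. Some genes are not reported here.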

Additional observations from a re-analysis of the deposited data

How the results depend on the processing

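Of 7640 calls between CEES and Control, the other scalings, filters and DESeq2 gave 7428 to 8063 calls, and leaving out 1 library gave 6169 to 7361. With total counts 2409 genes were lowered. With muscle share as a covariate 4202 genes were called, 2384 raised and 1818 lowered. That covariate also turned the sign of Aldoa (0.645), Krt5 (0.089), Pygm (0.224), Tigar (0.740), Pfkm (0.651), Lamb3 (0.735) and Lep (-0.045). No other alternative run turned the sign of a called gene named here. Since muscle share and group do not overlap, the covariate leaves little information to separate them, and the cause of lost calls was not tested. Between CEES and PAO, 4255 genes were called. Total counts gave 7863 (7067 higher, 796 lower), the muscle covariate 1052 (556 higher, 496 lower), and leaving out 1 library 2825 to 4008 (1593 to 2312 higher, 1232 to 1696 lower). Deviations of same-numbered CEES and Control libraries from their group showed little correlation over genes (r = -0.0416, -0.0163 and 0.0205). A correlation over all genes cannot tell whether a subset of genes deviated together. For Krt10, Krt1, Lor and Flg the lowest library had the same number in both groups. Whether the numbers pair the libraries was not tested further. With the replicate number as a block, 6296 genes were called between CEES and Control (3351 raised, 2945 lowered, with 18 of 20 hair keratins and 11 of 24 cornified envelope genes lowered) and 2617 between CEES and PAO (1344 higher, 1273 lower). Depth limits genes near 0 in Control, whose fitted changes depend on the prior count.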
